A study of Mus musculus with 9 samples.

Results

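Aquaporin transcripts were followed in the small intestine of adult mice on Affymetrix Mouse Genome 430 2.0 arrays. The members were all probe sets annotated to exactly 1 of 8 aquaporin genes: Aqp1, Aqp3, Aqp4, Aqp5, Aqp7, Aqp8, Aqp9 and Aqp11. These were 17 of the 45101 probe sets on the array. Of the 17, 14 passed the filter on low values and were tested, and they stand for 7 of the 8 genes. Neither probe set of Aqp9 passed, nor did 1 of the 4 of Aqp3.

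Aquaporins are membrane channels that let water cross lipid bilayers along osmotic gradients. Some of them, the aquaglyceroporins, also pass glycerol and other small uncharged solutes, and a few unorthodox members sit in intracellular membranes. The gut moves large volumes of water in both directions each day, and how much of that flow passes through aquaporins rather than between cells or along with solute carriers is still debated.

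The mutant jejunum (n = 3) came from Gata4loxP/-VilCre males, in which 1 Gata4 allele was null and the other flanked by loxP sites, beside a VilCre transgene. The control ileum (n = 3) and the control jejunum (n = 3) came from Gata4loxP/+VilCre males, with a wild-type allele in place of the null one and the same transgene, and with independent mice for the control segments. The villin promoter drives Cre in the intestinal epithelium, so the loxP-flanked copy met Cre in controls as well, and other layers of the gut wall kept their alleles. All mice were 6 to 8 weeks old. Jejunum was taken 10 cm beyond the pyloric sphincter and ileum 1 cm before the cecum, with 1 array per mouse.

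Levels are quantile-normalized log2(intensity + 16), on which an intensity of 0 gives 4 and the filter stood at 4.95. The trimmed mean intensity of the deposited arrays ran from 96.8 to 180 and was dimmer in control ileum, at 0.674 of the mean of the jejunum arrays. On the second principal component mutant jejunum 3 scored -55.8, far from the other 8 arrays (-6.17 to 22.4). The brighter Gata4 probe set read 9.61, 9.51 and 9.38 in mutant jejunum, 5.64, 5.30 and 5.20 in control ileum and 9.57, 9.49 and 9.52 in control jejunum. Where it lies relative to the deleted stretch is not stated, so it checks nothing about the deletion. All 7 listed markers of intestinal epithelium, among them Epcam, Vil1 and Cdx2, were measured in all groups. Fabp6, the ileal bile acid binding protein, averaged 13.90 in mutant jejunum, 13.74 in control ileum and 4.84 in control jejunum.

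Aqp3, Aqp8, Aqp11 and Aqp1 were called between the control segments. Against control jejunum the mutant was called lower for Aqp3, and for Aqp8 and a pair of Aqp11 probe sets it lay lower without overlap and without passing the test. Promoters of 3 of these are shown because Gata4 encodes a factor that binds the letters GATA. Each stretch is the 300 bases from 250 before to 50 after a gene start in RefSeq (GRCm38.p6), printed 5′ to 3′ on the strand of the gene, with GATA or its reverse complement TATC in capitals. The Aqp3 stretch is chr4:41098134-41098433 (minus strand), the Aqp8 stretch chr7:123462044-123462343 (plus strand) and the Aqp11 stretch chr7:97738198-97738497 (minus strand).
Aqp3: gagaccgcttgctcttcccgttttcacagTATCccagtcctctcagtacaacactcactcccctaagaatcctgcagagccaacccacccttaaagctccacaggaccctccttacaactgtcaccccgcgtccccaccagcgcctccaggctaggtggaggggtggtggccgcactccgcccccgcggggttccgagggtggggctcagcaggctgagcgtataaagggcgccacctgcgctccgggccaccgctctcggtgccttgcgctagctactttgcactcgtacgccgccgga
Aqp8: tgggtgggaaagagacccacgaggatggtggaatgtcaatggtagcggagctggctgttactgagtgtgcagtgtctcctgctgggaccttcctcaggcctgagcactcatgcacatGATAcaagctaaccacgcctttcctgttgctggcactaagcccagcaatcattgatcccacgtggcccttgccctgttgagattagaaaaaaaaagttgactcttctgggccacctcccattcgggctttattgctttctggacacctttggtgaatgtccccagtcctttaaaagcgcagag
Aqp11: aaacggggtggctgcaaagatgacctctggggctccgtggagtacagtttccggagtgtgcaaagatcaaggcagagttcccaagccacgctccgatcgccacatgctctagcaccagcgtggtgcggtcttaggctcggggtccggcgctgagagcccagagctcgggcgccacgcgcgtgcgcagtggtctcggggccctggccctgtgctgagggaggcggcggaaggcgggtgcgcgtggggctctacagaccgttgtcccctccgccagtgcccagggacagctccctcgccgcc

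The Aqp3 stretch held 1 match, TATC at base 30 counted from its 5′ end, and the Aqp8 stretch held 1, GATA at base 118. The stretches of Aqp11 and Aqp1 held none. GATA occurs on either strand in 57.9% of the 32851 promoters of the same length. The longer forms AGATAA and TGATAA, each of which holds GATA, occur on either strand in 11.2% and 9.05% of all promoters and were found in none of these 4. Among the other genes, which were not called or not tested, a stretch of Aqp7 held 1 AGATAA and a stretch of Aqp9 held 1 TGATAA. A match is a description of these letters and not a binding site, and promoters for 7 of the 8 genes were matched by symbol.

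Aqp3 showed the largest called differences of the family in each of the 3 comparisons. It encodes an aquaglyceroporin that sits in the basolateral membrane of many epithelia and passes water and glycerol. Its brightest probe set, 1450460_at, read 7.34, 6.84 and 6.59 in mutant jejunum, 6.22, 5.63 and 5.52 in control ileum and 8.53, 8.44 and 8.94 in control jejunum. Every mutant mouse lay below every control jejunum mouse and above every control ileum mouse.

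In deposited intensities, before any scaling, the same probe set read 174, 115 and 85.1 in mutant jejunum, 38.8, 28.1 and 24.7 in control ileum and 412, 342 and 565 in control jejunum. The order of the groups was thus already present in the authors' values. In bulk tissue such as this, fewer cells of a type and less RNA per cell cannot be told apart. Against control jejunum, the mutant level fell by 1.72 on the log2 scale, or 3.28-fold (SE 0.24, 95% interval -2.24 to -1.19, adjusted p = 0.00274). The level in control ileum was 7.19-fold below control jejunum (log2 difference -2.85, SE 0.24, adjusted p = 2.42e-05). Set directly against control ileum, the mutant stood higher by 1.13 (SE 0.24, adjusted p = 0.0327). These adjusted p-values and those below are from limma over all 29307 probe sets tested. The calls against control jejunum held under all 20 other settings tried, with differences from -1.91 to -1.39 in the mutant and from -3.27 to -2.10 in control ileum.

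The difference between mutant jejunum and control ileum was lost under several settings. Its adjusted p was 0.0512 without control jejunum 1, 0.111 without mutant jejunum 1, 0.0732 without mutant jejunum 2, 0.122 without control ileum 2 and 0.0942 without control ileum 3. It was 0.052 with a pseudocount of 64, 0.0534 with no filter and 0.0706 where the third group was left out of the model. Without mutant jejunum 3, the array that lay apart, the mutant differed by -1.55 from control jejunum (adjusted p = 0.00951) and by 1.30 from control ileum (adjusted p = 0.0228).

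The other probe sets of Aqp3 gave the fall as well, with 1 exception near background. Probe set 1422007_at read 6.52, 5.60 and 5.30 in mutant jejunum, 5.28, 4.41 and 4.92 in control ileum and 7.76, 7.36 and 7.90 in control jejunum. Probe set 1422008_a_at read 6.09, 5.13 and 5.21 in mutant jejunum, 4.68, 4.79 and 4.66 in control ileum and 7.08, 6.92 and 7.47 in control jejunum. On both, the 3 groups took the same order as on the brightest one and no arrays of different groups overlapped. The mutant fell by 1.87 (adjusted p = 0.0081) and by 1.68 (adjusted p = 0.00382) against control jejunum. Control ileum differed from it by -2.81 and -2.45 (adjusted p = 0.000177 and 9.79e-05). Neither was called between mutant jejunum and control ileum (log2 difference 0.94, adjusted p = 0.151, and 0.76, adjusted p = 0.143). These 3 probe sets share 1 annotated source transcript and are not independent measurements. The size of the difference on the dimmer 2 turns on the pseudocount: the difference of mutant from control jejunum was -2.26 and -2.17 with 1, and -1.26 and -1.03 with 64. The ileal difference was -3.85 and -3.53 with 1, and -1.70 and -1.37 with 64. All 3 control ileum arrays on 1422008_a_at, and 2 of 3 on 1422007_at, lay under the 4.95 of the filter, so the ileal differences of these probe sets have no firm size. The fourth probe set, 1447727_at, ran from 4.11 to 4.72 over the 9 arrays, close to the value of an empty probe set, and was not tested. Mutant jejunum 1 had the highest mutant level on the 3 tested probe sets, and control ileum 1 the highest ileal level on 2 of them.

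**Figure D1:**
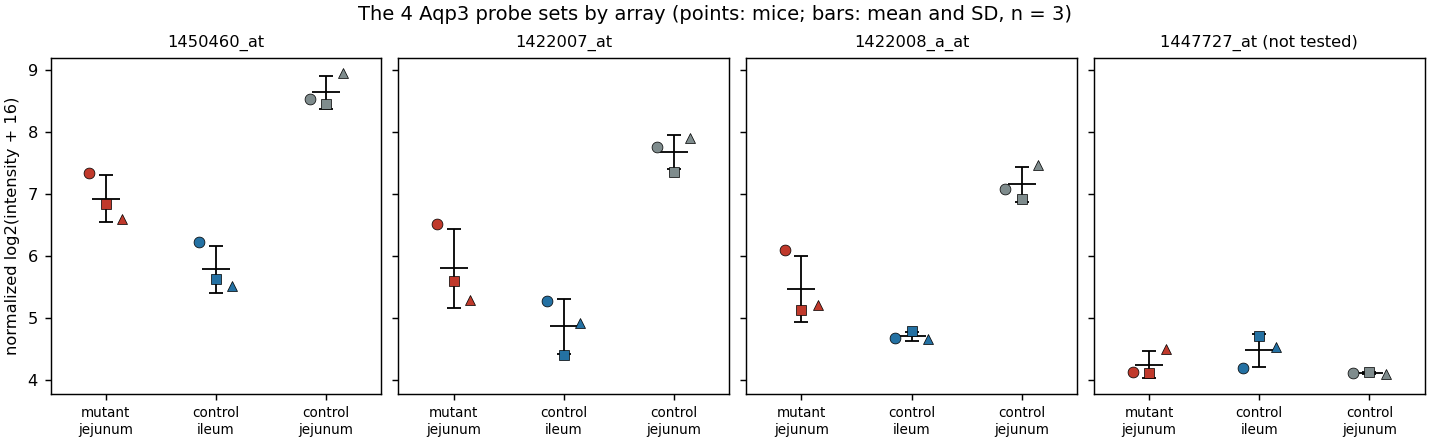
Levels of the 4 Aqp3 probe sets, as normalized log2(intensity + 16) on the vertical axis, in mutant jejunum, control ileum and control jejunum. Points are mice, and horizontal marks with bars are the mean and SD (n = 3); on the 3 tested probe sets mutant jejunum lies between control ileum and control jejunum without overlap, and on 1447727_at all arrays lie from 4.11 to 4.72.

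Aqp7 lies directly beside Aqp3 on mouse chromosome 4, with no protein-coding gene between them in the RefSeq order (GRCm38.p6). Aqp7 encodes the aquaglyceroporin through which fat cells release glycerol. It was not called in any of the 3 comparisons. Nor were the flanking genes Nfx1, Chmp5, Nol6 and Ube2r2, whose differences between mutant and control jejunum ran from -0.30 (Ube2r2) to 0.19 (Chmp5).

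The genes outside the family whose levels followed Aqp3 most closely over the 9 arrays were Spns2, a sphingosine-1-phosphate exporter, Sphk1, a sphingosine kinase, and Plpp1, a lipid phosphate phosphatase. The measure was the root mean square difference after each gene was centred on its own mean, which came to 0.18, 0.23 and 0.25 where the SD of Aqp3 itself was 1.28. Spns2 averaged 7.66 in mutant jejunum, 6.66 in control ileum and 9.17 in control jejunum. All of these were picked from 13830 genes for their likeness, so the closeness is a description and carries no test.

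Aqp8 encodes a water channel of the apical and intracellular membranes of epithelial cells in the intestine, pancreas and liver. Its single probe set, 1417828_at, read 5.39, 5.02 and 5.07 in mutant jejunum, 5.43, 5.18 and 5.12 in control ileum and 6.18, 7.03 and 5.67 in control jejunum. All 6 arrays of mutant jejunum and control ileum lay below the 3 of control jejunum, whose own spread (SD 0.68) was the widest. The probe set was dim throughout, with deposited intensities of 18 to 28.9 in mutant jejunum, 15.5 to 17.5 in control ileum and 40.8 to 123 in control jejunum.

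The level of Aqp8 in control ileum differed by -1.05 from control jejunum (2.08-fold lower, SE 0.29, adjusted p = 0.0299). The difference of the mutant from control jejunum was of like size, -1.13 (SE 0.29, 95% interval -1.77 to -0.50), and missed the threshold (adjusted p = 0.0564). It passed with no scaling between arrays (adjusted p = 0.0307), with median centring in place of quantiles (adjusted p = 0.047) and without control jejunum 3 (adjusted p = 0.0251). The ileal call in turn was lost without control jejunum 1 (adjusted p = 0.0555), control jejunum 2 (-0.69, adjusted p = 0.0786), control ileum 2 (adjusted p = 0.0836) or control ileum 3 (adjusted p = 0.0842), and with no filter (adjusted p = 0.054). With the filter raised to the 60th percentile Aqp8 was not tested. The sizes on this dim probe set turn on the pseudocount: with 1 they were -1.60 in the mutant and -1.46 in control ileum, and with 64 they were -0.62 and -0.58. Without control jejunum 2 the mutant differed by -0.77 (adjusted p = 0.146). Between mutant jejunum and control ileum the difference was -0.08, with a 95% interval of -0.71 to 0.55.

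Aqp8 is also made in pancreas and liver, and markers of both were set beside it. Of 8 listed acinar markers 5 were tested, and their summed normalized intensity ran from 286 to 424 in mutant jejunum, 275 to 317 in control ileum and 317 to 345 in control jejunum. The acinar genes Cpa1, Cela2a and Pnlip were not tested, and none of the 5 tested was called. At an unadjusted p under 0.05 in limma, 1 was higher in mutant jejunum and 1 in control ileum than in control jejunum. Over all tested probe sets, 8.62% and 15.9% were higher by that rule. At an unadjusted p under 0.05, 0 of the 4 liver genes were higher and 2 lower in mutant jejunum than in control jejunum. In control ileum 1 was higher and 2 were lower. Alb, the serum albumin gene, averaged 4.45 in mutant jejunum, 4.36 in control ileum and 6.90 in control jejunum. It was called lower in both against control jejunum (adjusted p = 0.0159 and 0.00407 in limma), beside 2.29% and 9.12% of all genes. It read 5.49, 7.54 and 7.66 in control jejunum 1, 2 and 3, where the highest Aqp8 was in mouse 2 and the lowest in mouse 3. Apoh went the other way, at 6.79 in mutant jejunum, 7.48 in control ileum and 6.34 in control jejunum. Ttr averaged 6.71, 5.89 and 7.19 in the same groups, and neither was called in any comparison. The summed liver markers, most of whose signal is Cps1, which enterocytes make too, ran from 2570 to 3320 in mutant jejunum, 3030 to 3650 in control ileum and 3430 to 4240 in control jejunum. Their part in the Aqp8 difference was not tested. The genes most like Aqp8 were Slc19a1, Gpld1 and Fzd4, with root mean square differences of 0.27, 0.27 and 0.28 over the 9 arrays, against an SD of 0.66 for Aqp8.

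Aqp11 is an unorthodox member that sits in the membrane of the endoplasmic reticulum, and mice without it develop cystic kidneys. Its brightest probe set, 1429254_at, read 9.58, 9.39 and 8.95 in mutant jejunum, 8.48, 8.55 and 8.56 in control ileum and 9.91, 9.63 and 10.02 in control jejunum. The mutant mice lay between the control segments with no overlap on either side. Control ileum stood 2.5-fold below control jejunum (log2 difference -1.32, SE 0.17, adjusted p = 0.000415), a call that held under all 20 other settings.

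The mutant level of Aqp11 was 0.78 above control ileum (SE 0.17, adjusted p = 0.0347), and its difference from control jejunum, -0.55 (SE 0.17, 95% interval -0.91 to -0.18), was not called (adjusted p = 0.109). Leaving out any 1 of 7 arrays ended the call against control ileum. Its adjusted p was 0.055 without control jejunum 1, 0.0506 without control jejunum 3, 0.123 without mutant jejunum 1 and 0.107 without mutant jejunum 2. It was 0.0933, 0.111 and 0.0754 without control ileum 1, 2 and 3. It was also lost with no filter (adjusted p = 0.05), no intensity trend (adjusted p = 0.0598), a model of only these 2 groups (adjusted p = 0.0745) and a replicate block (adjusted p = 0.0538). Without mutant jejunum 3 the mutant differed by 0.95 from control ileum (adjusted p = 0.00706) and by -0.37 from control jejunum (adjusted p = 0.195).

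The second Aqp11 probe set, 1447606_x_at, carries the suffix for probes that may match other transcripts. It read 7.39, 7.44 and 6.92 in mutant jejunum, 6.92, 7.01 and 7.09 in control ileum and 7.83, 7.68 and 7.83 in control jejunum. Control ileum differed from control jejunum by -0.77 (adjusted p = 0.00709), while mutant jejunum was not called against control jejunum (-0.53, adjusted p = 0.0966) or against control ileum (0.24, adjusted p = 0.498). The third, 1455846_at, ran from 5.10 to 5.66 over all arrays and was not called in any comparison. The genes most like Aqp11 were Gpd1, a glycerol-3-phosphate dehydrogenase, Prap1 and Cdip1, with root mean square differences of 0.12, 0.13 and 0.14 against an SD of 0.61 for Aqp11. Gpd1 averaged 10.72 in mutant jejunum, 9.90 in control ileum and 11.11 in control jejunum.

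Aqp1 is the water channel of red blood cells and of the lining of many capillaries. Its 1 probe set, 1416203_at, read 10.61, 10.55 and 10.45 in mutant jejunum, 9.95, 9.99 and 9.02 in control ileum and 10.50, 10.66 and 11.35 in control jejunum. Control ileum lay below both jejunal groups without overlap, and the jejunal groups overlapped. The level in control ileum was 2.27-fold below control jejunum (log2 difference -1.18, SE 0.26, adjusted p = 0.0118), called under all 20 other settings with differences from -1.73 to -0.87. Mutant and control jejunum differed by -0.30 (95% interval -0.88 to 0.28, adjusted p = 0.623). Mutant jejunum stood 0.88 above control ileum without passing the threshold (adjusted p = 0.113), but it passed with no scaling between arrays (1.49, adjusted p = 0.00436) or with median centring (1.18, adjusted p = 0.0433).

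Vessel markers were looked at beside Aqp1. Of 9 listed markers 8 were tested, and 1 was called between the control segments. This was Kdr, a receptor for vascular growth factor, lower in ileum (log2 difference -0.94, adjusted p = 0.0117 in limma). At an unadjusted p under 0.05, 2 were lower in ileum and 0 higher, beside 15% and 15.9% of all tested probe sets. Pecam1, Cdh5, Kdr, Tek, Emcn and Tie1 lay lower in ileum without overlap, as did 17.7% of all tested probe sets. Egfl7 and Lyve1 overlapped. The median difference of the 8 was -0.35, beside 0.03 over all genes, of which 9.12% were called lower and 8.79% higher. Their summed normalized intensity ran from 347 to 743 in mutant jejunum, 324 to 418 in control ileum and 454 to 499 in control jejunum. The highest value was in mutant jejunum 3, the array that lay apart. Prox1 was not tested. Of the 5 red cell markers, Alas2 alone was tested (5.20 in mutant jejunum, 4.86 in control ileum and 5.20 in control jejunum). Of the 4 mesothelial markers 3 were tested and none was called (limma, 0 at an unadjusted p under 0.05). The part of these cells in the ileal difference was not tested. The genes most like Aqp1 were Lrat, which forms retinyl esters, Aldh1a1, a retinaldehyde dehydrogenase, and Frs3, with root mean square differences of 0.17, 0.18 and 0.19 against an SD of 0.64 for Aqp1.

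**Figure D2:**
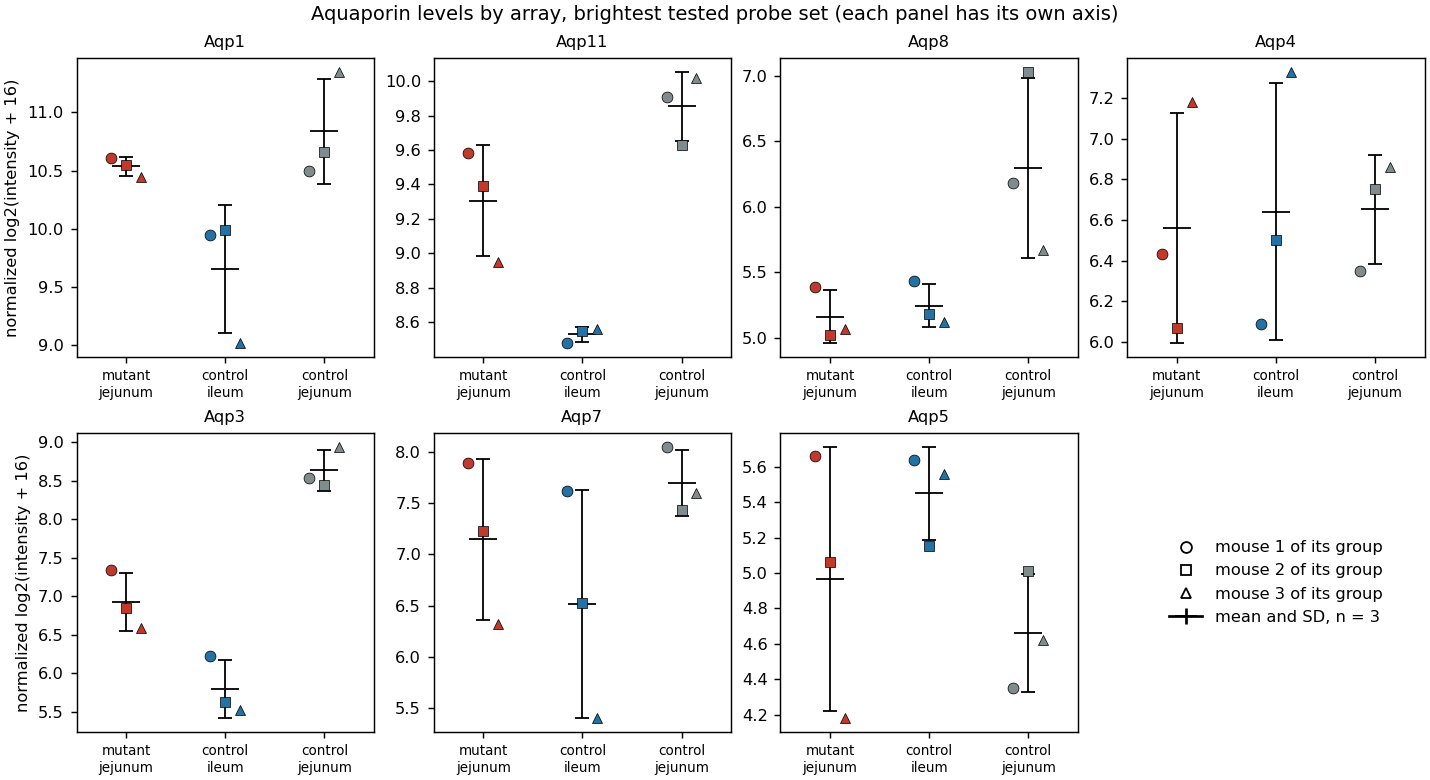
Levels of the 7 aquaporins with a tested probe set, as normalized log2(intensity + 16), each panel on its own vertical axis and showing the brightest tested probe set. Points are mice, with the symbol giving the number in its group, and bars are the mean and SD (n = 3); Aqp3 and Aqp11 show mutant jejunum between the segments, Aqp8 shows it beside control ileum and Aqp1 beside control jejunum.

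Aqp7 varied widely between mice within mutant jejunum and within control ileum. Its probe set 1418848_at read 8.24, 7.87 and 6.39 in mutant jejunum, 8.34, 6.65 and 5.79 in control ileum and 7.23, 6.10 and 6.69 in control jejunum. Probe set 1418849_x_at read 7.89, 7.23 and 6.32 in mutant jejunum, 7.62, 6.52 and 5.40 in control ileum and 8.05, 7.43 and 7.60 in control jejunum. The groups overlapped in every comparison on both.

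The Aqp7 probe sets share 1 annotated source transcript, yet their differences of mutant from control jejunum had opposite signs. These were 0.83 (95% interval -0.52 to 2.17, adjusted p = 0.546) on 1418848_at and -0.55 (95% interval -1.64 to 0.55, adjusted p = 0.642) on 1418849_x_at. Between control ileum and control jejunum the differences were 0.25 (adjusted p = 0.82) and -1.18 (adjusted p = 0.133). The second of these passed with no scaling between arrays (-1.63, adjusted p = 0.0126), with a replicate block (adjusted p = 0.0227) and without control ileum 1 (-1.75, adjusted p = 0.0284). The Aqp7 intervals were the widest of the family, and that of 1418848_at between the control segments ran from -1.09 to 1.59.

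Since fat cells make Aqp7, their markers were set beside it. Of 6 listed fat cell markers, Adipoq, Retn and Cidec were tested, and Plin1, Cfd and Lep were not. Adipoq, the gene of the fat cell hormone adiponectin, read 4.33, 8.65 and 4.27 in mutant jejunum, 4.04, 6.54 and 9.34 in control ileum and 4.20, 5.09 and 4.10 in control jejunum. It lay near 4, the value of an empty probe set, in mutant jejunum 1 and 3, control ileum 1 and control jejunum 1 and 3. Retn read 4.48, 7.24 and 4.32 in mutant jejunum, 4.26, 5.65 and 7.57 in control ileum and 4.77, 4.49 and 4.29 in control jejunum. Cidec read 8.66, 8.44 and 8.36 in mutant jejunum, 7.91, 6.59 and 7.12 in control ileum and 8.81, 8.17 and 8.97 in control jejunum. The part of fat cells in the Aqp7 levels was not tested. The summed normalized intensity of the 3 markers ran from 319 to 852 in mutant jejunum, 192 to 928 in control ileum and 297 to 491 in control jejunum. Cidec, a lipid droplet protein that enterocytes make too, was called lower in ileum against control jejunum (-1.45, adjusted p = 0.00809 in limma). It was called higher in mutant jejunum than in control ileum (1.28, adjusted p = 0.0492). Over all genes, 9.12% were called lower in the first of these comparisons and 1.97% higher in the second. Adipoq and Retn were not called in any comparison.

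**Figure D3:**
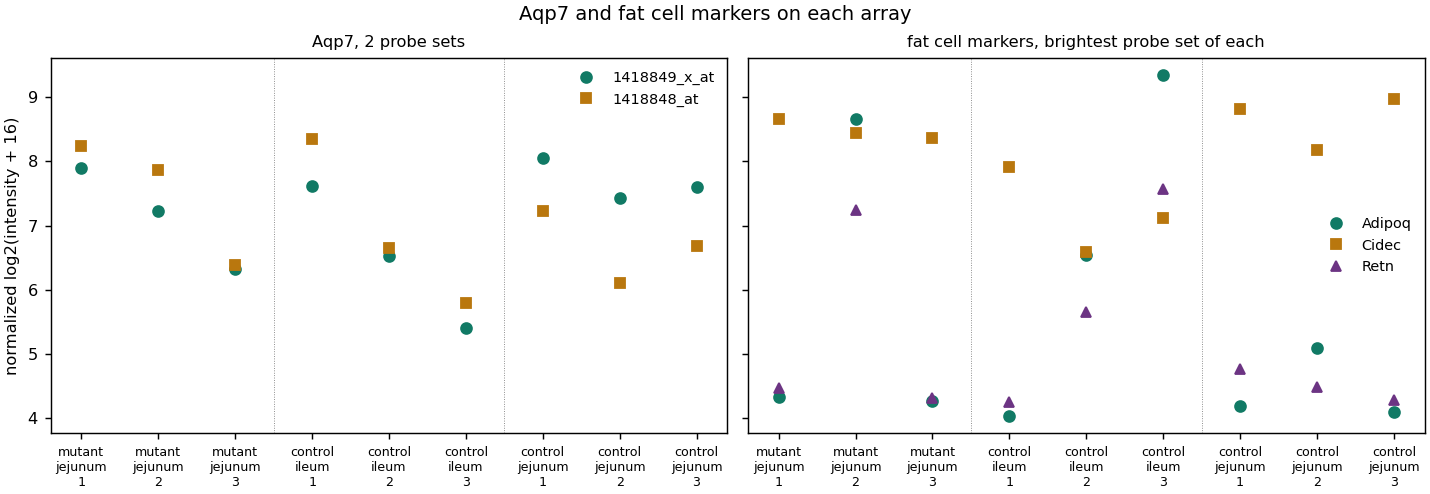
Levels of both Aqp7 probe sets (left) and of the fat cell markers Adipoq, Cidec and Retn (right) on each of the 9 arrays, as normalized log2(intensity + 16); each point is 1 mouse. Adipoq and Retn are high in mutant jejunum 2 and control ileum 2 and 3, and Aqp7 on 1418848_at is highest in control ileum 1 and mutant jejunum 1.

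Aqp4, the water channel of glial end feet that is also found in the basolateral membrane of some gut and airway epithelia, was not called on any of its 3 probe sets. The brightest, 1434449_at, read 6.43, 6.07 and 7.18 in mutant jejunum, 6.09, 6.50 and 7.33 in control ileum and 6.35, 6.75 and 6.86 in control jejunum. All groups overlapped, and the highest value in each was that of mouse 3. Mutant and control jejunum differed by -0.10 (95% interval -0.82 to 0.63), and control ileum and control jejunum by -0.01 (95% interval -0.74 to 0.71).

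On the dimmer Aqp4 probe sets the groups separated once each without passing the test. On 1425382_a_at mutant jejunum lay below control jejunum (5.69 ± 0.11 and 6.24 ± 0.27, SD, n = 3 each; difference -0.55, adjusted p = 0.277 in limma). On 1447745_at control ileum lay above control jejunum (5.82 ± 0.33 and 5.33 ± 0.06, SD, n = 3 each; difference 0.49, adjusted p = 0.146 in limma). Of 6 genes of the complex that anchors Aqp4 and its partner potassium channel in glia 5 were tested, and none was called between mutant and control jejunum (limma, 1 higher and 2 lower at an unadjusted p under 0.05). Between control ileum and control jejunum the anchor genes Sntb1 (0.80, adjusted p = 0.0154) and Dtna (0.69, adjusted p = 0.0148) were higher, and Kcnj10, the channel, was not called (-0.69, adjusted p = 0.0602). In this comparison 8.79% of all genes were called higher and 9.12% lower. Among 5 tested markers of enteric neurons and glia, the neuronal genes Elavl4 (0.90, adjusted p = 0.0058) and Uchl1 (0.67, adjusted p = 0.0372) were higher in control ileum than in control jejunum. The glial genes Sox10 (-0.84, adjusted p = 0.0537), Gfap (-0.49, adjusted p = 0.102) and S100b (-0.08, adjusted p = 0.788) were not called, and the median of the 5 was -0.08. Their summed normalized intensity ran from 109 to 132 in mutant jejunum, 153 to 223 in control ileum and 137 to 168 in control jejunum.

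Aqp5, the apical water channel of salivary, sweat and airway glands, was near the filter. Its probe set 1418818_at read 5.66, 5.06 and 4.18 in mutant jejunum, 5.64, 5.15 and 5.56 in control ileum and 4.35, 5.01 and 4.62 in control jejunum. Control ileum lay above control jejunum without overlap, and the mutant mice spanned both. No comparison was called, with differences of 0.31 between mutant and control jejunum (adjusted p = 0.707) and 0.79 between control ileum and control jejunum (adjusted p = 0.132). The second passed without mutant jejunum 3 (0.78, adjusted p = 0.0435) and with the mutant arrays left out of the model altogether (adjusted p = 0.0455). Markers of duodenal and pyloric glands, where Aqp5 is made, were mostly under the filter: Tff2, Muc6 and Muc5ac were not tested. Gkn3, the fourth, averaged 5.84 in mutant jejunum, 5.77 in control ileum and 6.30 in control jejunum, the reverse of the order of Aqp5 between the control segments.

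Aqp9, an aquaglyceroporin of liver and white blood cells, did not pass the filter. Probe set 1421605_a_at ran from 4.14 to 4.90 in mutant jejunum, 4.72 to 4.88 in control ileum and 4.84 to 5.12 in control jejunum. Probe set 1424011_at ran from 4.17 to 4.77 in mutant jejunum and from 4.19 to 4.89 in control ileum, and read 4.85 and 4.68 in control jejunum 2 and 3, with control jejunum 1 just above the 4.95 of the filter. All these values lie near the floor of the scale. Of 7 myeloid markers 5 were tested, and Csf1r, a macrophage receptor, was called lower in control ileum against control jejunum (-1.02, adjusted p = 0.0176). Over all genes, 9.12% were called lower in this comparison. The neutrophil gene Csf3r was not called (-0.04, adjusted p = 0.921), and S100a8 and S100a9 were not tested. Lyz2 (0.40), Itgam (0.41) and Cd14 (0.60) went the other way without a call, and the median of the 5 was 0.40. The 4 other aquaporin genes on the array, Mip, Aqp2, Aqp6 and Aqp12, had 8 probe sets. Of these genes, Aqp6 and Aqp12 had a tested probe set, and neither was called in any comparison, with differences from -0.15 to 0.25 and 0 at an unadjusted p under 0.05.

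Over the tested probe sets, the calls of each comparison all had the same sign. Between mutant and control jejunum, 3 of 14 aquaporin probe sets were lower and 0 were higher (limma), all 3 of them of Aqp3, where 1.82% and 1.74% of all tested probe sets were called lower and higher. By brightest probe set, 1 of 7 genes was lower and 0 higher, beside 2.29% and 2.1% of 13830 genes. At an unadjusted p under 0.05, 7 were lower and 0 higher, beside 8.29% and 8.62% of all tested. The groups did not overlap for 7 of the 14, all with the mutant lower, where 11% of all tested probe sets had the mutant lower and 11.4% had it higher without overlap. The median difference of the 14 was -0.54, beside 0.00 over all probe sets.

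Between control ileum and control jejunum, 7 of 14 probe sets were lower and 0 higher, beside 7.86% and 8.36% of all tested. They belong to 4 of 7 genes, beside 9.12% of all genes lower and 8.79% higher by brightest probe set. At an unadjusted p under 0.05, 8 were lower and 2 higher, beside 15% and 15.9% of all tested, and the 2 were 1447745_at of Aqp4 and Aqp5. The groups did not overlap for 7 with the ileum lower and for 2 with the ileum higher, beside 17.7% and 19.7% of all tested. The median difference was -0.91, beside 0.01 over all.

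Between mutant jejunum and control ileum, 2 of 14 were higher and 0 lower, beside 1.39% and 1.27% of all tested, and these were Aqp3 1450460_at and Aqp11 1429254_at, 2 of 7 genes beside 1.97% of all genes higher and 1.7% lower. At an unadjusted p under 0.05, 5 were higher and 1, 1447745_at of Aqp4, was lower, beside 8.07% and 8.24% of all tested. The mutant lay above the ileum without overlap for 5 probe sets and below it for 0, beside 9.9% and 10.7% of all tested. The median difference was 0.41, beside -0.01 over all. The first 2 comparisons share the control jejunum arrays, and the third difference is the first minus the second. None of the 3 is therefore independent of the others. The 14 hold up to 3 probe sets of 1 gene, so their number overstates the separate measurements.

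**Figure D4:**
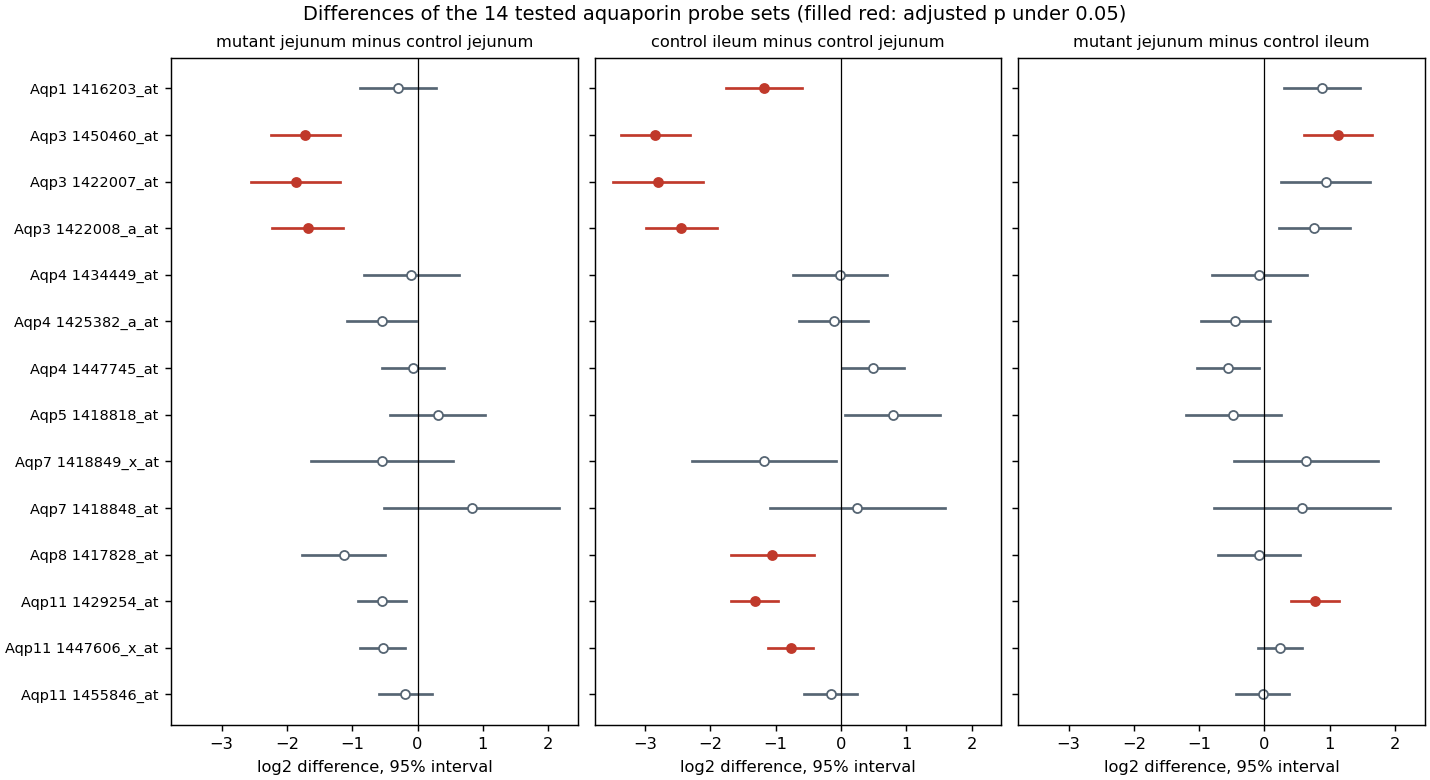
Log2 differences with 95% intervals (horizontal axis) of the 14 tested aquaporin probe sets in mutant jejunum minus control jejunum, control ileum minus control jejunum and mutant jejunum minus control ileum; filled red points have an adjusted p under 0.05 in limma. The 3 Aqp3 probe sets lie at -1.68 or lower in the first comparison and at -2.45 or lower in the second.

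Aquaporins work along gradients that ion and solute transporters set up. Of 16 listed genes of salt and glucose-coupled transport 15 were tested. None was called between mutant and control jejunum, beside 2.1% of all genes called higher and 2.29% lower, and the median difference was -0.01. At an unadjusted p under 0.05, 1 was higher and 2 were lower. The brightest were Atp1b1, a subunit of the sodium pump (0.03), Slc9a3r1, a scaffold of the sodium-proton exchanger (-0.01), Clca1 (0.32) and the sodium-glucose cotransporter Slc5a1 (-0.26, adjusted p = 0.277). Between control ileum and control jejunum 3 were higher and 4 lower, beside 8.79% and 9.12% of all genes. The anion exchangers Slc26a3 (-0.70, adjusted p = 0.00817) and Slc26a6 (-0.54, adjusted p = 0.033) were lower in ileum, and the potassium channel Kcnq1 (0.55, adjusted p = 0.015) and the sodium bicarbonate cotransporter Slc4a4 (0.50, adjusted p = 0.0357) were higher.

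Aqp3, Aqp7 and Aqp9 also carry glycerol, and 10 of 11 listed genes of glycerol and glyceride handling were tested. Between mutant and control jejunum 2 fell and 1 rose, beside 2.29% and 2.1% of all genes, with a median of -0.35 beside 0.00. The acyltransferases of the last step of triglyceride synthesis fell (Dgat2 -1.22, adjusted p = 0.00589; Dgat1 -0.61, adjusted p = 0.00623), and Agpat2, which acts earlier on that path, rose (0.75, adjusted p = 0.00673). Mogat2, the monoacylglycerol acyltransferase, differed by -0.32 (adjusted p = 0.163). Between control ileum and control jejunum 5 were lower and none higher (limma, 1 higher at an unadjusted p under 0.05), beside 9.12% and 8.79% of all genes, with a median of -0.88 beside 0.03. These were Dgat2 (-1.62), Gpd1 (-1.20), the hormone-sensitive lipase gene Lipe (-1.17), Mogat2 (-0.90) and Dgat1 (-0.86). Against control ileum, Gpd1 (0.82, adjusted p = 0.0105) and Mogat2 (0.58, adjusted p = 0.0226) were higher in mutant jejunum.

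Marker levels of other tissue layers also differed between ileal and jejunal samples, and these values stand beside every ileal value above. Of 5 smooth muscle markers, 4 were higher in control ileum, at a median difference from control jejunum of 1.06. Their summed normalized intensity ran from 4260 to 6520 in mutant jejunum, 9860 to 12700 in control ileum and 5060 to 7220 in control jejunum. Of 7 epithelial markers 3 were called higher in ileum and none lower (limma, 4 higher and 0 lower at an unadjusted p under 0.05), while Krt20 (-0.15) and Vil1 (-0.06) lay lower without overlap and without passing the test. The 7 had sums of 38100 to 42500 in mutant jejunum, 40500 to 42800 in control ileum and 36400 to 38100 in control jejunum. Between mutant and control jejunum no smooth muscle marker was called (limma, 0 at an unadjusted p under 0.05, median -0.27) and 1 epithelial marker, Krt18, rose (0.84, adjusted p = 0.00271). At an unadjusted p under 0.05, 3 of the 7 epithelial markers were higher in the mutant and 0 lower. Over all tested probe sets the shares were 8.62% and 8.29%. Goblet cell markers were called higher in ileum for 3 of 6 genes and lower for 1. In mutant jejunum against control jejunum 1 of these 6, Spdef, was called higher (0.59, adjusted p = 0.0472 in limma) and 0 lower. Beside these marker counts, 8.79% of all genes were called higher and 9.12% lower in ileum, and 2.1% and 2.29% in mutant jejunum, each against control jejunum. The part of tissue makeup in the aquaporin differences was not tested.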

How the data were processed

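Total RNA from 9 mice, 3 per group, was hybridised after the Affymetrix one-cycle procedure, per the labels' protocols. The deposited values, a linear intensity for each probe set on each array, were made by the authors with GCOS, per the submitters' processing notes, which name no version or setting. Groups came from the sample titles. Gene names came from GEO's annotation of the array, in which 34945 probe sets carry 1 gene, 932 several and 9160 none, and promoters came from RefSeq (GRCm38.p6).

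From the deposited intensities, 64 array control probe sets were left out, 16 was added, log2 was taken and the arrays were quantile-normalized, which hides any shift shared by all transcripts. Probe sets above the 40th percentile of all values (4.95) on at least 3 of 9 arrays were tested. Limma 3.58.1 under R 4.3.3 was fitted over all 9 arrays, with an intensity trend, two-sided tests and Benjamini-Hochberg adjustment over 29307 probe sets, and was tested on simulated data. A call is an adjusted p under 0.05.

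For list genes, the probe set with the highest mean over the 9 arrays stands for the gene. All members are named, the 3 genes most like each called member, and up to 4 genes of each gene list (called with the largest differences, then brightest). Marker genes and the further glycerol genes were named after their values were seen. Members and lists were chosen with earlier results of these data known. Alternatives changed the scaling, pseudocount, filter, trend, groups fitted, array weights or replicate block, or left out 1 array.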

Additional observations from a re-analysis of the deposited data

How the results depend on the processing

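With 3 arrays per group, the data limit small differences, and the dim probe sets of Aqp5, Aqp8, Aqp9 and of 1 or more of Aqp3, Aqp4 and Aqp11 lie close to the floor of the scale. Over 20 alternatives, none of the 12 calls among 42 aquaporin results (14 probe sets in 3 comparisons) changed sign, and those of Aqp3, Aqp11 and Aqp1 against control jejunum were kept in each. Calls of Aqp8 between control ileum and control jejunum and of Aqp3 and Aqp11 between mutant jejunum and control ileum made up the 24 losses. Leaving out 1 array gave 3 to 4 calls for mutant against control jejunum, 6 to 8 for control ileum against control jejunum and 0 to 2 for mutant jejunum against control ileum.

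The count of 2 for mutant jejunum against control ileum became 6 with no scaling between arrays, 3 with arrays centred on their medians or weighted, 1 with a pseudocount of 64, no intensity trend or the replicate block, and 0 with no filter or a fit of the 2 groups alone. With no scaling, the median of all probe sets was itself shifted by -0.40 in control ileum against control jejunum and by 0.41 in mutant jejunum against control ileum, so these counts carry that shift. The titles number the mice 1 to 3 in each group, and the main fit did not take the numbers as pairs. The deviations of same-numbered arrays correlated at 0.17, -0.06 and -0.01 between mutant and control jejunum, where differently numbered arrays ran from -0.19 to 0.19. Same-numbered arrays gave -0.07, 0.05 and -0.04 between control ileum and control jejunum, and 0.12, 0.01 and 0.10 between mutant jejunum and control ileum. With 3 arrays per group these values cannot settle whether the mice were paired.

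Sign changes were found only among results that were not called, 23 in all. Without scaling, Aqp7 1418848_at gave -0.21 (control ileum against control jejunum), and Aqp8, Aqp4 1434449_at and Aqp11 1455846_at gave 0.21, 0.32 and 0.28 (mutant jejunum against control ileum). Aqp4 1434449_at also gave 0.02 with trimmed mean scaling and 0.01 with a pseudocount of 64 (control ileum against control jejunum), and 0.01 with arrays centred on their medians (mutant jejunum against control ileum). Leaving out 1 array, Aqp4 1434449_at ran from -0.40 to 0.15 for mutant against control jejunum, -0.36 to 0.26 for control ileum against control jejunum and -0.39 to 0.27 for mutant jejunum against control ileum. The other probe sets with a sign change were Aqp4 1447745_at (-0.24 to 0.11) and Aqp5 (-0.04 to 0.69) for mutant against control jejunum, Aqp4 1425382_a_at (-0.39 to 0.12) and Aqp7 1418848_at (-0.46 to 0.82) for control ileum against control jejunum, and Aqp8 (-0.19 to 0.01) and Aqp11 1455846_at (-0.16 to 0.08) for mutant jejunum against control ileum. The cause of these changes was not tested.

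Over all probe sets, the calls between mutant and control jejunum numbered 1044, against 659 with no scaling and 1998 with array weights, and ran from 400 (without control jejunum 3) to 1007 with 1 array left out. Between control ileum and control jejunum they numbered 4752, against 10632 with no scaling and 2862 to 5954 with 1 array left out, and between mutant jejunum and control ileum 778, against 8497 with no scaling, 1184 with arrays centred on their medians, 1680 with array weights, 332 with a fit of the 2 groups alone and 199 to 1049 with 1 array left out. Higher calls made up 48.9%, 51.5% and 52.2% in these comparisons, and 62%, 36.7% and 79.1% with arrays centred on their medians. With no scaling the share was 5.82% for control ileum against control jejunum and 98.3% for mutant jejunum against control ileum.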
